A study of Rattus norvegicus with 30 samples.

Results

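The subject is the later response of cultured rat hepatocytes to a high dose of clofibrate: 5 cultures exposed to 1000 uM clofibrate for 48 h, set against 5 cultures that received the 1% DMSO vehicle for 48 h. These 10 arrays of the 30 in the series were selected by their labelled agent, concentration and time, and that rule used no measured value. The comparison itself was chosen with earlier results of these data known. All groups were primary hepatocytes of male Sprague Dawley rats, bought frozen, thawed, plated on collagen under a Matrigel overlay and dosed on day 3 of culture. The other groups used here were 5 cultures with 60 uM clofibrate for 48 h, 5 with 1000 uM clofibrate for 24 h and 5 with DMSO for 24 h. Each replicate was a separate well, and the labels do not name separate animals. The p-values therefore measure the spread between cultures. Plated hepatocytes from a purchased frozen stock are a limited model of the liver of a living rat.

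Clofibrate is a fibrate, a lipid-lowering drug whose acid form activates PPAR-alpha, a nuclear receptor for fatty acids that pairs with RXR on DNA. In rodent liver this receptor raises the genes of fatty acid uptake, peroxisomal and mitochondrial fatty acid oxidation and ketone body formation, and fibrates make the peroxisomes of rat and mouse liver multiply. The same receptor is also known to lower a set of inflammatory and acute phase genes.

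Each array gave 1 signal per probe set on a linear scale, and differences are given as log2 of 1000 uM clofibrate over DMSO with the standard error (SE). A gene passed when limma's adjusted p was under 0.05 over all 18625 probe sets tested. Each of the 10627 genes tested stands by its brightest probe set. The authors' scaling gave every array the same trimmed mean of 1501, so a change in total RNA per culture would not be seen. In such bulk samples fewer cells of a type and less RNA per cell cannot be told apart.

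Hepatocyte markers were clearly measured, and all 13 on the array lay above the background floor in both groups. Their summed signal was 546725 to 576136 in the 1000 uM cultures and 616205 to 728433 in the DMSO cultures. *Alb*, the gene of serum albumin, had 83561, 85739, 80648, 84096 and 85872 in the 1000 uM cultures, against 78756, 84077, 77409, 81917 and 100680 in the DMSO cultures, and these ranges overlapped. The *Alb* signals lay near the top of the array's range, where a difference can be compressed. The mean signal of *Hnf4a*, a master regulator of hepatocyte identity, was 9510 in 1000 uM cultures and 9600 in DMSO cultures. Among the markers, *Ahsg* (28600 in 1000 uM cultures, 67600 in DMSO cultures), *Tat* (8280 and 20600, in the same order) and *Ass1* (33500 and 62100, in the same order) were lower with clofibrate, whereas *Cyp2e1* (14100 and 6120, in the same order) and *Asgr1* (16400 and 9330, in the same order) were higher. Marker lists of other liver cells had low sums. The endothelial list summed to 4150 to 4760 in the 1000 uM cultures and 3408 to 4700 in the DMSO cultures. The stellate cell and fibroblast list summed to 5019 to 5749 in the 1000 uM cultures and 4868 to 6068 in the DMSO cultures. Kupffer cell markers summed to 24022 to 25668 in the 1000 uM cultures and 25629 to 29704 in the DMSO cultures, most of it *Cd14* and *Lyz2*, with *Adgre1* and *Itgam* under the floor in both groups. Bile duct markers summed to 10713 to 11351 in the 1000 uM cultures and 13502 to 16038 in the DMSO cultures, mostly *Epcam*, with *Krt7* under the floor. Lymphoid markers summed to 957 to 1304 in the 1000 uM cultures and 1174 to 1386 in the DMSO cultures. The part of these cells in the results was not tested.

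At 48 h, 1820 genes were higher with 1000 uM clofibrate (17.1% of the genes tested) and 2847 were lower (26.8%), and the median difference over all genes was −0.06. The groups did not overlap for 1365 genes on the high side (12.8%) and 2021 on the low side (19%). Most differences were small: 274 genes rose at least 2-fold (2.58%) and 251 fell at least 2-fold (2.36%), with 50 rises and 23 falls of at least 4-fold. When arrays were instead scaled to the poly-A spike-in sets, the median over all genes was 0.09 and the counts were 2336 higher and 1260 lower. The balance of small rises and small falls thus rests on the scaling. The mean log2 signal of the spike-in sets itself ranged from 10.06 to 10.53 in the DMSO cultures and from 10.08 to 10.19 in the 1000 uM cultures. Scaling to them therefore shifts cultures of 1 group by different amounts. Of the genes named below and in the closing section, *Acot9*, *Acta2*, *Asns*, *Cps1*, *Kmo*, *Krt8*, *Krt18*, *Mpv17*, *Pfkp*, *Rpl7l1*, *Slc22a4*, *Slc3a2*, *Tead1*, *Tmem14a* and *Trib3* were lower in the main scaling and did not pass with spike-in scaling. *Arg1*, *H19*, *Lcn2* and *Otc* passed as higher with spike-in scaling and not in the main one. Dimmer probe sets of the named genes gave 48 further values, of which 11 differed from the brightest on passing and 0 passed in the opposite direction. The first principal component of the 10 arrays took 45.2% of the variance and separated the groups. Arrays of 1 group correlated at 0.973 to 0.976 in the 1000 uM cultures and 0.964 to 0.976 in the DMSO cultures, against 0.93 to 0.947 between the groups. DMSO replicate 1 stood apart with a residual SD of 0.336. Without it, 2634 probe sets were higher and 3986 lower, against 2835 (15.2% of probe sets) and 4219 (22.7%) with it.

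**Figure D1:**
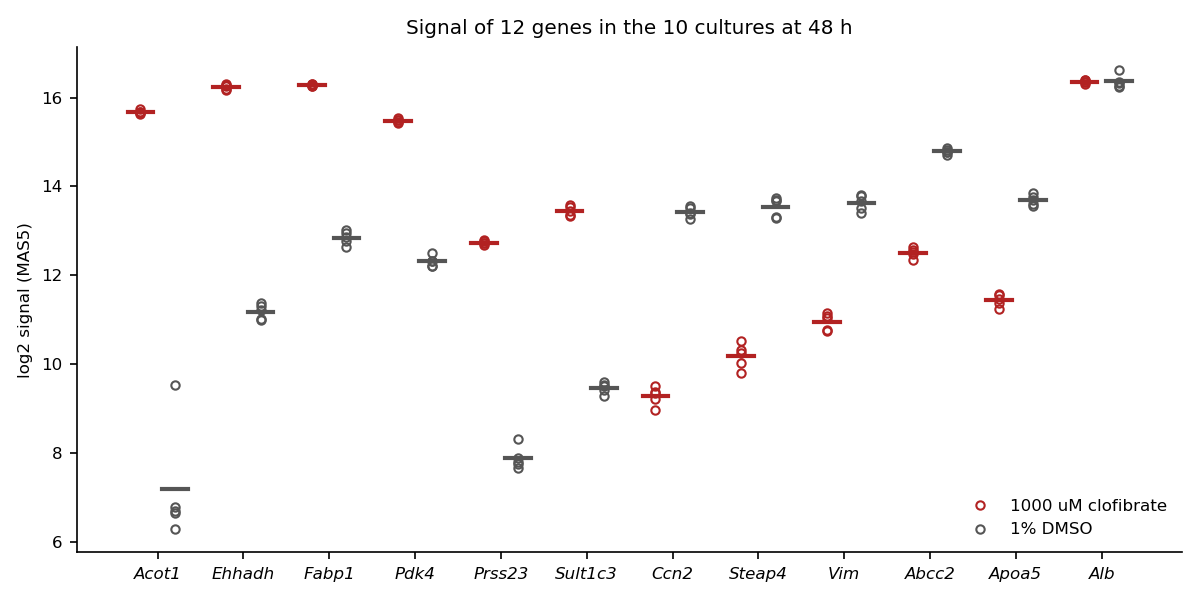
Log2 signal (vertical axis, arbitrary signal units) of 12 genes in each 48 h culture, with 1000 uM clofibrate in red at the left and 1% DMSO in grey at the right of each pair; circles are cultures and lines are group means. *Acot1*, *Ehhadh*, *Fabp1*, *Pdk4*, *Prss23* and *Sult1c3* lay higher in all 5 clofibrate cultures, *Ccn2*, *Steap4*, *Vim*, *Abcc2* and *Apoa5* lay lower in all 5, and *Alb* overlapped.

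Known PPAR-alpha target genes were the most strongly raised list. Of 16 such genes tested, 15 were higher at 48 h and none was lower, with a median difference of 2.21 against −0.06 over all genes. *Acot1*, a cytosolic thioesterase that splits long-chain acyl-CoA, had the largest difference of any named gene. Its signals were 52504, 51700, 52021, 54942 and 50960 in the 1000 uM cultures, against 739, 104, 101, 78.2 and 111 in the DMSO cultures. Every clofibrate culture stood far above every DMSO culture, of which replicate 1 was well above the others. The log2 difference was 8.48 ± 0.47, adjusted p = 2.48e-16. It was 7.63 when a constant of 100 was added before taking logs, and most DMSO signals lay near the floor of 65.6. *Acot1* and *Acot2* are close paralogs, as are the *Cyp4a* genes, and cross-hybridisation between their probe sets was not tested.

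*Ehhadh*, the peroxisomal bifunctional enzyme of the beta-oxidation spiral, had 73814, 74842, 77876, 80956 and 80263 in the 1000 uM cultures, against 2671, 2079, 2040, 2390 and 2538 in the DMSO cultures (5.06 ± 0.08, adjusted p = 6.58e-31). *Cyp4a1*, an omega-hydroxylase of fatty acids, had 80665, 84546, 79904, 81776 and 83955 in the 1000 uM cultures, against 11724, 8707, 10785, 13338 and 15208 in the DMSO cultures (2.81 ± 0.09, adjusted p = 5.89e-22). *Pdk4*, a kinase that switches off pyruvate dehydrogenase, had 45017, 47375, 44023, 45820 and 46368 in the 1000 uM cultures, against 5822, 4756, 4752, 5102 and 5120 in the DMSO cultures (3.16 ± 0.06, adjusted p = 6.13e-28). In each of these 3 genes the groups were far apart. The *Ehhadh* and *Cyp4a1* signals with clofibrate were close to those of *Alb*, near the top of the array's range.

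Several other members rose by less. *Cyp4a3* rose by 2.32, *Cd36* (a fatty acid transporter of the plasma membrane) by 2.12, *Vnn1* (a pantetheinase) by 2.02 and *Angptl4* (a secreted inhibitor of lipoprotein lipase) by 1.74 on the log2 scale. *Pex11a*, which takes part in peroxisome division, rose by 1.35. *Plin2*, the coat protein of lipid droplets, already had a high signal in the DMSO cultures and rose by 0.54. *Fgf21*, the gene of a fasting hormone secreted by liver, was the member that did not pass. It had 3231, 2991, 3645, 2375 and 2783 in the 1000 uM cultures, against 2277, 1565, 2173, 3618 and 3753 in the DMSO cultures. These ranges overlapped, and the log2 difference was 0.23 ± 0.15, adjusted p = 0.257. Without DMSO replicate 5 it was 0.37 with a limma adjusted p of 0.0465.

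*Fabp1*, the liver fatty acid binding protein that carries fatty acids within the cell, had 79342, 80576, 78241, 81420 and 78074 in the 1000 uM cultures, against 6990, 6361, 7413, 8353 and 7908 in the DMSO cultures. The lowest clofibrate culture was far above the highest DMSO culture, and the log2 difference was 3.43 ± 0.06, adjusted p = 3.2e-30. Its promoter is shown because PPAR-alpha with RXR is known to bind a direct repeat with a spacer of 1 base (DR1). The sequence is the 250 bases before the gene start in RefSeq's GRCr8 assembly of the rat, chr4:104749090-104749339 on the forward strand, and the capitals mark a DR1 match on the opposite strand.
Fabp1: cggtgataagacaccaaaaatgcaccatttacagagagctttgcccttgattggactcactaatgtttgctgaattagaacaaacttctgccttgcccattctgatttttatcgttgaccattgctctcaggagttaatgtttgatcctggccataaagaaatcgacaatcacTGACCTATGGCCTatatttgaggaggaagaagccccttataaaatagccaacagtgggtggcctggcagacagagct
The letters searched on both strands were AGGNCA, any base, then AGGTCA, and the match starts at −77 from the gene start. They were found in 27 of 27457 promoters of this length (0.0983%), and among the 148 named genes that have a promoter in the table, *Fabp1* was the 1 that holds them. A match is a description of the sequence, and no match says only that these letters are not in the window.

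Peroxisomal beta-oxidation was raised nearly throughout: 19 of 20 genes were higher, none was lower, and the median difference was 1.4. After *Ehhadh* the largest differences were those of *Crat*, which makes acetylcarnitine, with 2.76, and *Hacl1*, a lyase of alpha-oxidation, with 2.75. *Hacl1* had 38659, 41548, 41196, 42924 and 39623 in the 1000 uM cultures, against 5759, 4704, 5733, 7390 and 7179 in the DMSO cultures, with no overlap. *Eci2* rose by 2.15, *Ech1* by 1.67 and *Hsd17b4*, the second bifunctional enzyme of the spiral, by 1.38. *Nudt19*, which hydrolyses CoA, had a difference of 0.05 and did not pass. Peroxisome biogenesis genes moved less, with 13 of 23 peroxins and membrane proteins higher and 2 lower (median 0.41). The 2 listed genes that fell were *Mpv17* (−0.40) and *Mpv17l* (−0.87). Neither is a peroxin, and where their products lie in these cells was not tested. Of 15 enzymes that make or use hydrogen peroxide, 9 were higher and 2 lower. *Cat*, the gene of catalase, rose by 0.50, whereas *Hao2*, a hydroxy acid oxidase, fell by 2.22 on the log2 scale, with 548, 947, 685, 1021 and 1116 in the 1000 uM cultures, against 3610, 3470, 3898, 4468 and 4089 in the DMSO cultures.

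In mitochondria, all 21 beta-oxidation genes tested were higher, with a median difference of 1.03. *Acadm*, the medium-chain acyl-CoA dehydrogenase, had 34471, 35632, 35774, 40151 and 40600 in the 1000 uM cultures, against 7069, 6601, 7494, 8703 and 7995 in the DMSO cultures (2.30 ± 0.06, adjusted p = 2.94e-24). *Hadha*, the alpha subunit of the trifunctional protein, had 27064, 26686, 28410, 28509 and 29161 in the 1000 uM cultures, against 8176, 7992, 8295, 10013 and 9413 in the DMSO cultures (1.68 ± 0.05, adjusted p = 5.69e-23). Both genes separated the groups completely. The smallest rise was that of *Echs1*, the short-chain enoyl-CoA hydratase, at 0.12. When arrays were centred on their median, 20 of the 21 passed.

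The carnitine shuttle, which carries acyl groups into mitochondria, had 9 of 12 genes higher and 2 lower (median 1.47). *Cpt1b*, known as the muscle form of carnitine palmitoyltransferase 1, had 10917, 10987, 11153, 11016 and 12682 in the 1000 uM cultures, against 1335, 1160, 948, 1070 and 1044 in the DMSO cultures (3.36 ± 0.07, adjusted p = 2e-27). *Cpt1a*, the liver form, rose by 2.05 on the log2 scale. *Slc22a5*, the plasma membrane carnitine transporter, rose by 2.04, *Cpt2* by 1.45 and *Slc25a20*, the carnitine carrier of the inner mitochondrial membrane, by 1.48. The members of this list that fell were *Slc25a29* (−1.72) and *Slc22a4* (−0.40), and their part in carnitine transport was not tested.

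Enzymes and proteins that handle acyl-CoA and free fatty acids also rose in part. Of 10 acyl-CoA thioesterases 9 were higher and *Acot9* was lower, with a median difference of 1.76. *Acsl1*, the main long-chain acyl-CoA synthetase of liver, had 60885, 61508, 59385, 60856 and 61830 in the 1000 uM cultures, against 11188, 10330, 10982, 11820 and 11689 in the DMSO cultures (2.44 ± 0.05, adjusted p = 2.82e-27), and the groups were far apart. The binding proteins were divided, with 5 of 11 higher and 3 lower. *Fabp3*, the heart fatty acid binding protein, had 5102, 5107, 4737, 4933 and 4437 in the 1000 uM cultures, against 369, 89.9, 165, 386 and 84.9 in the DMSO cultures (4.77 ± 0.39, adjusted p = 4.83e-12). Its DMSO signals were dim and uneven, and its difference was 4.09 with a constant of 100 added. *Fabp5*, the epidermal form, was lower (−0.46).

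Lipid storage and glycerol genes followed the same direction. In the lipid droplet and lipolysis list, 16 of 21 genes were higher and 1 was lower, with a median difference of 1.04. *Hilpda*, an inhibitor of the lipase ATGL, rose by 2.35 and *Mgll*, the monoglyceride lipase, by 2.16 on the log2 scale. *G0s2*, another inhibitor of ATGL, rose by 1.69, and *Pnpla2*, which encodes ATGL itself, by 1.63. Of 9 genes of glycerol metabolism 6 were higher and 1 was lower. *Aqp7*, a glycerol channel best known from fat cells, had 16314, 15588, 16152, 16549 and 17490 in the 1000 uM cultures, against 3090, 2135, 2279, 2485 and 2503 in the DMSO cultures (2.73 ± 0.07, adjusted p = 3.3e-25). *Gpd2*, the mitochondrial glycerol-3-phosphate dehydrogenase, had 5608, 4977, 5249, 5318 and 4632 in the 1000 uM cultures, against 753, 831, 604, 747 and 541 in the DMSO cultures (2.91 ± 0.10, adjusted p = 6.47e-22). *Gk*, the glycerol kinase, rose by 2.46, whereas *Aqp9*, the hepatocyte's usual glycerol channel, was the member that fell (−1.29). The muscle or fat form thus rose and the liver form fell for the glycerol channel, while both forms rose for carnitine palmitoyltransferase 1.

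Fatty acid synthesis genes were mixed. In the desaturase and elongase list 9 of 14 genes were higher and 3 lower, and *Fads2*, the delta-6 desaturase, led with 4372, 4135, 4219, 5121 and 5594 in the 1000 uM cultures, against 906, 871, 1030, 835 and 730 in the DMSO cultures (2.42 ± 0.14, adjusted p = 8.57e-16). The groups were widely separated. Of 20 lipogenic genes, 9 were higher and 7 lower, with a median difference of 0.01. *Dgat1*, the last enzyme of triglyceride synthesis, rose by 1.83 and *Me1*, malic enzyme, by 1.50, whereas *Acaca* fell by 0.50 and *Pklr*, liver pyruvate kinase, by 0.85 on the log2 scale. Of 25 cholesterol genes, 12 were higher and 6 lower. Ketone body genes were also divided, with 4 of 7 higher and 3 lower. *Acat1*, which makes acetoacetyl-CoA, rose by 2.06 and *Bdh1*, 3-hydroxybutyrate dehydrogenase, by 1.38. *Bdh2* fell by 0.59 on the log2 scale.

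**Figure D2:**
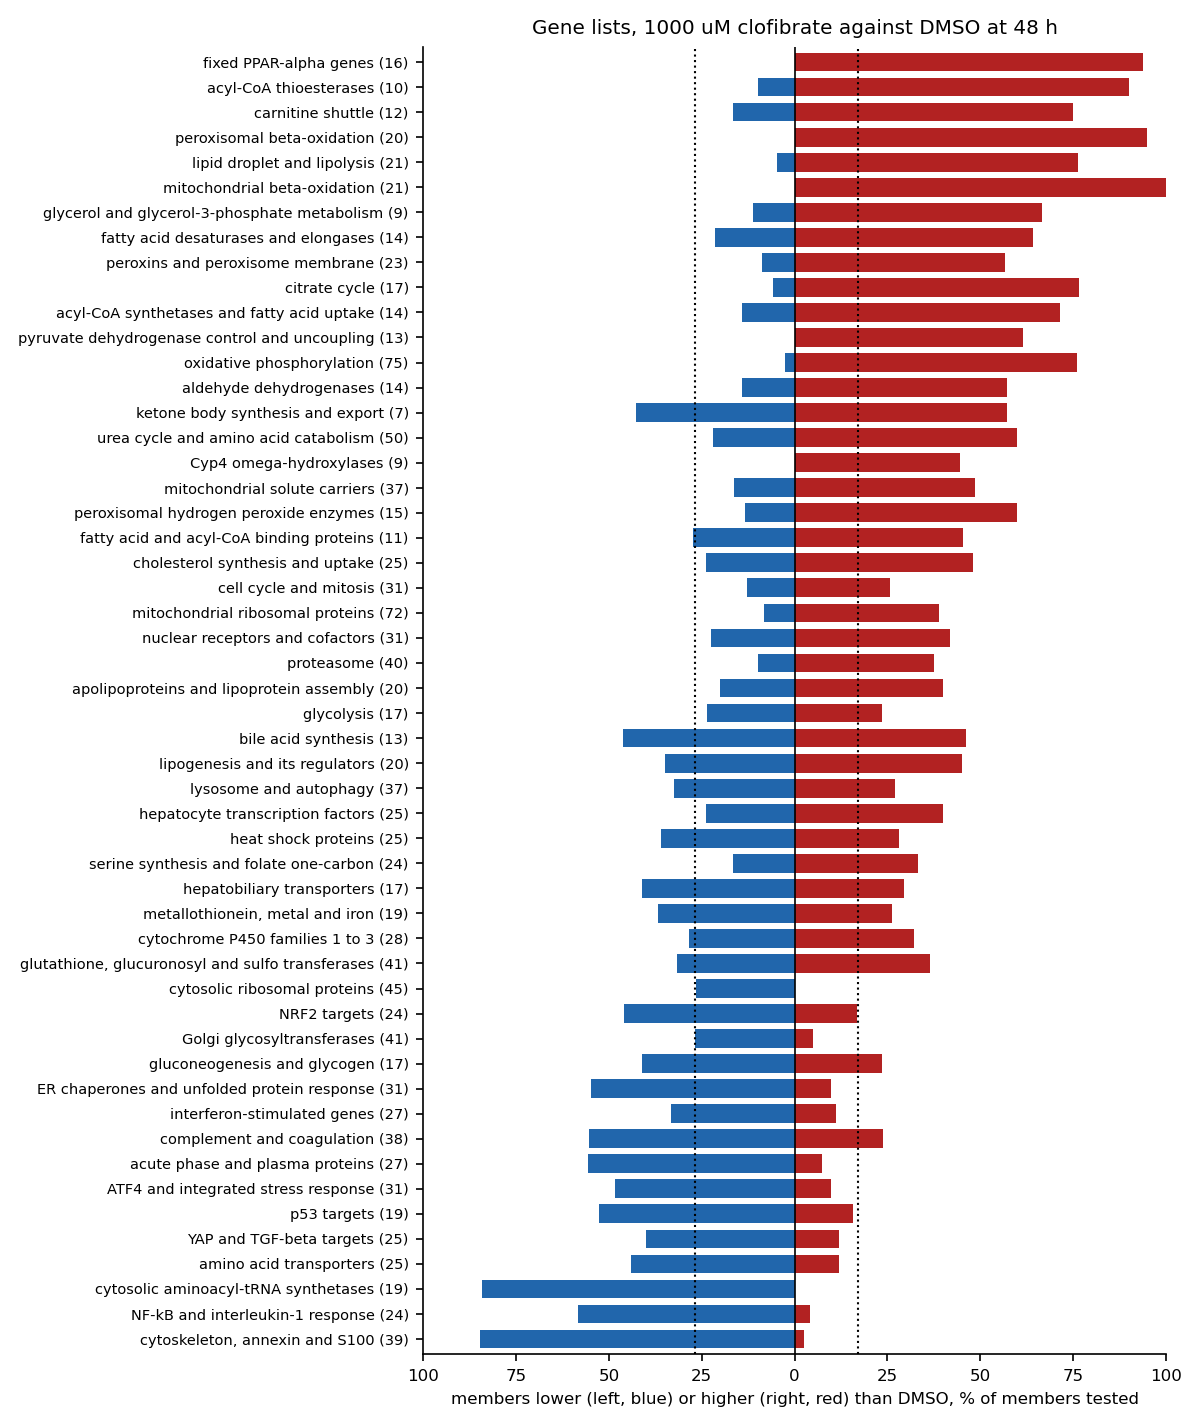
Share of tested members of 52 gene lists that passed lower (blue, left) or higher (red, right) with 1000 uM clofibrate than with DMSO at 48 h, in percent; lists are sorted by their median difference, the number tested stands in brackets, and dotted lines mark the shares over all genes (26.8% lower, 17.1% higher). The PPAR-alpha, thioesterase, carnitine and beta-oxidation lists stand at the top, and the cytoskeleton, interleukin-1 and aminoacyl-tRNA synthetase lists at the bottom.

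Several of the largest rises lay outside fatty acid metabolism. *Prss23*, a secreted serine protease, had 7062, 6754, 6554, 7003 and 6793 in the 1000 uM cultures, against 203, 238, 222, 217 and 322 in the DMSO cultures (4.85 ± 0.19, adjusted p = 3.24e-20). *Sult1c3*, a sulfotransferase, had 10360, 10440, 11264, 12290 and 11937 in the 1000 uM cultures, against 730, 627, 687, 776 and 746 in the DMSO cultures (3.98 ± 0.14, adjusted p = 9.92e-22). *Cyp17a1*, the steroid 17-alpha-hydroxylase, had 4299, 4524, 5645, 4437 and 4466 in the 1000 uM cultures, against 344, 383, 476, 432 and 380 in the DMSO cultures (3.54 ± 0.11, adjusted p = 1.73e-22). In all 3 genes every clofibrate culture stood far above every DMSO culture.

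*Spc24*, a component of the Ndc80 kinetochore complex, had 14381, 14198, 14756, 13604 and 13430 in the 1000 uM cultures, against 1027, 1173, 1212, 1329 and 1338 in the DMSO cultures (3.54 ± 0.07, adjusted p = 4.39e-28). Of the same complex, *Nuf2* differed by 0.20 and *Spc25* by 0.05, and neither passed. Of 31 cell cycle genes, 8 were higher and 4 lower (median 0.11). *Cacna2d3*, an auxiliary calcium channel subunit, rose by 3.48, *Sectm1b* by 3.10, *Cd300a*, an inhibitory receptor known from immune cells, by 3.01 and *Ucp2*, a mitochondrial anion carrier, by 2.96 on the log2 scale. For *Cd300a* and *Sectm1b* the DMSO signals were 58.7 to 326 and 60.5 to 399, close to the floor. With a constant of 100 added their differences were 2.32 and 2.37.

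Among the falls, genes of the cytoskeleton and of cell contact with its surroundings stood out. In a list of 39 cytoskeleton, annexin and S100 genes, 33 were lower and 1 was higher, with a median difference of −0.58. With spike-in scaling 27 were lower and the median was −0.43. *Vim*, the intermediate filament vimentin, had 2107, 1727, 2193, 2275 and 1747 in the 1000 uM cultures, against 14037, 14367, 13022, 10830 and 11636 in the DMSO cultures (−2.67 ± 0.10, adjusted p = 2.65e-20). *S100a6*, a calcium-binding protein, had 3723, 3676, 3523, 3359 and 3669 in the 1000 uM cultures, against 19478, 20621, 18352, 14923 and 14705 in the DMSO cultures (−2.28 ± 0.08, adjusted p = 1.51e-21). Both were lower in all 5 clofibrate cultures. *Tpm4* fell by 1.37, *Tagln2* by 1.31, *Tmsb4x* by 1.30 and *Flna* by 1.17 on the log2 scale. *Vcl*, vinculin, was the member that rose (0.31), and the keratins *Krt8* and *Krt18* of hepatocytes each fell by 0.28. The summed stellate cell and fibroblast markers overlapped between the groups, as given above. Of 7 such markers tested, only *Acta2* passed, and it was lower without overlap (−0.49 ± 0.13, adjusted p = 0.00208). The part of these cells in the falls was not tested.

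*Ccn2*, connective tissue growth factor, had the largest fall of the named genes. Its signals were 671, 503, 660, 727 and 599 in the 1000 uM cultures, against 12048, 10840, 10702, 11800 and 9881 in the DMSO cultures. The highest clofibrate culture was far below the lowest DMSO culture (−4.14 ± 0.10, adjusted p = 3.44e-26). *Fn1*, fibronectin, had 7608, 8829, 8246, 8041 and 8562 in the 1000 uM cultures, against 39594, 39858, 35404, 37599 and 38811 in the DMSO cultures (−2.21 ± 0.05, adjusted p = 2.86e-26). *Ccn1* fell by 1.13 and *Amotl2* by 1.19 on the log2 scale. Of the 25 YAP and TGF-beta target genes tested, 10 were lower and 3 higher (median −0.29), among them *Id1*, which rose by 0.79. *Tead1*, a DNA-binding partner of YAP, was lower (−0.36).

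The promoter of *Ccn2* is shown because TEAD factors, through which YAP acts, are known to bind there. The sequence is the 250 bases before the gene start in RefSeq's GRCr8 assembly, chr1:22624615-22624864 on the reverse strand, and the capitals mark the core letters GGAATG.
Ccn2: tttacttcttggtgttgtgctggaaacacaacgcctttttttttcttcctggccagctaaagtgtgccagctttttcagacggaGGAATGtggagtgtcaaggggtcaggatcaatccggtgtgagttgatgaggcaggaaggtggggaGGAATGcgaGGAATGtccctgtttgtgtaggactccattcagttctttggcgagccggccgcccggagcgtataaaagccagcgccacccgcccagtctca
The letters, searched on both strands, occur 3 times, the first match at −166 and the last at −92 from the gene start. At least 1 match was found in 3228 of 27457 promoters (11.8%), and 3 or more in 25 (0.0911%). Among the named genes 20 hold the letters, some of which rose (*Cpt1a*, *Spc24*) and some of which fell (*Ccn2*, *Amotl2*).

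Genes of the interleukin-1 and NF-kB response were lower or did not pass, with 1 exception. Of 24 tested, 14 were lower and 1 was higher, with a median difference of −0.43. Leaving out 1 culture at a time gave 11 to 14 lower. *Steap4*, a metalloreductase induced by inflammatory signals, had 1049, 1469, 1214, 1278 and 901 in the 1000 uM cultures, against 13112, 13366, 13784, 9995 and 10219 in the DMSO cultures (−3.36 ± 0.11, adjusted p = 1.17e-22). *Il1r2*, the decoy receptor of interleukin-1, had 346, 359, 403, 529 and 473 in the 1000 uM cultures, against 3197, 2245, 2158, 1520 and 1504 in the DMSO cultures (−2.29 ± 0.17, adjusted p = 2.61e-13). Neither gene overlapped between the groups. *Cxcl1*, a neutrophil chemokine, fell by 1.73 and *Tnfaip3*, a brake on NF-kB, by 0.86 on the log2 scale. *Sod2* was the member that rose (0.18), and *Lcn2* differed by 0.09 without passing. The Kupffer cell marker sums given above, mostly *Cd14* and *Lyz2*, overlapped slightly between the groups. Of 12 such markers tested, 3 were lower, 1 was higher and 8 did not pass. *Lyz2* (−0.85 ± 0.08, adjusted p = 9.62e-11) and the dim *C1qb* (−1.86 ± 0.32, adjusted p = 1.72e-05) fell without overlap, and *Tyrobp* rose (0.72). The part of these cells in the falls was not tested.

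Secreted plasma proteins were partly lower. Of 38 complement and coagulation genes, 21 were lower and 9 higher (median −0.21), and the median was −0.06 with spike-in scaling. *Klkb1*, plasma prekallikrein, had 699, 623, 439, 804 and 645 in the 1000 uM cultures, against 3153, 3157, 3265, 3452 and 4758 in the DMSO cultures (−2.48 ± 0.14, adjusted p = 2.96e-16). *C1s* and *C1r*, proteases of the first complement component, fell by 1.60 and 1.63 on the log2 scale. *Cfd*, complement factor D, rose by 1.15. Of 27 acute phase and plasma protein genes 15 were lower and 2 higher (median −0.25). *A2m*, alpha-2-macroglobulin, a strong acute phase protein of the rat, had 15086, 19280, 17688, 15148 and 15445 in the 1000 uM cultures, against 55135, 62039, 59494, 54933 and 58466 in the DMSO cultures (−1.82 ± 0.06, adjusted p = 2.07e-21), with no overlap. *Ahsg*, fetuin-A, fell by 1.24 and *Lbp*, the lipopolysaccharide binding protein, by 1.42 on the log2 scale. *Serpina7*, thyroxine-binding globulin, rose by 1.86. *Kng2l1*, a kininogen gene, had 3997, 4015, 4322, 4995 and 5468 in the 1000 uM cultures, against 20731, 21354, 21174, 22022 and 22709 in the DMSO cultures (−2.25 ± 0.07, adjusted p = 3.07e-22).

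Lipoprotein genes did not move as a group, with 8 of 20 higher and 4 lower. *Apoa5*, a regulator of plasma triglycerides, had 2830, 2437, 2674, 3088 and 3023 in the 1000 uM cultures, against 13858, 14820, 13196, 12159 and 12507 in the DMSO cultures (−2.25 ± 0.07, adjusted p = 2.69e-23). *Mttp*, which loads lipid onto apolipoprotein B, had 27778, 29426, 28693, 27711 and 28353 in the 1000 uM cultures, against 11683, 10532, 10967, 12432 and 11522 in the DMSO cultures (1.31 ± 0.05, adjusted p = 1.4e-21). These genes moved in opposite directions, each without overlap. *Apoc3*, whose product slows triglyceride clearance, differed by 0.02 and *Apoa1* by −0.06, and neither passed.

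Bile acid and transport genes were also divided. Of 13 bile acid synthesis genes 6 were higher and 6 lower. *Cyp7a1*, the rate-limiting enzyme, had 684, 489, 780, 804 and 1041 in the 1000 uM cultures, against 1480, 1525, 1532, 2036 and 2089 in the DMSO cultures (−1.21 ± 0.16, adjusted p = 1.94e-07). *Cyp8b1*, which sets the share of cholic acid, had 32475, 33436, 33805, 34117 and 38153 in the 1000 uM cultures, against 13662, 12899, 14750, 16072 and 16497 in the DMSO cultures (1.22 ± 0.06, adjusted p = 9.26e-18). *Nr1h4*, the bile acid receptor FXR, rose by 1.19. Of 17 hepatobiliary transporters 7 were lower and 5 higher. *Abcc2*, the canalicular exporter of conjugated anions, had 6126, 6414, 5756, 5863 and 5173 in the 1000 uM cultures, against 27977, 29880, 26968, 28253 and 28923 in the DMSO cultures (−2.28 ± 0.06, adjusted p = 5.89e-25), far apart. *Abcb4*, the phospholipid flippase of bile, fell by 1.62 on the log2 scale, whereas *Abcb11*, the bile salt export pump, rose by 0.30.

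Drug-metabolising enzymes moved gene by gene. Among 28 cytochromes P450 of families 1 to 3, 9 were higher and 8 lower, and the median of −0.03 turned to 0.12 with spike-in scaling. *Cyp2c11*, the male-specific form of rat liver, had 2828, 3286, 2836, 3420 and 4473 in the 1000 uM cultures, against 10849, 10634, 9293, 12098 and 12658 in the DMSO cultures (−1.73 ± 0.09, adjusted p = 5.6e-17). *Cyp2e1*, the ethanol-inducible form, had 13335, 11513, 15382, 14097 and 15944 in the 1000 uM cultures, against 5115, 5327, 5589, 7074 and 7491 in the DMSO cultures (1.21 ± 0.09, adjusted p = 4.46e-13). The pregnane X receptor gene *Nr1i2* rose by 0.48. Of 24 NRF2 targets, 11 were lower and 4 higher (median −0.11, which turned to 0.04 with spike-in scaling). *Srxn1* fell by 1.05 and *Nqo1* differed by −0.16 without passing. Among 41 glutathione, glucuronosyl and sulfo transferases 15 were higher and 13 lower, from *Sult1c3* at the top to *Sult6b2* at the bottom, which fell by 2.22 on the log2 scale.

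Some of the largest falls belonged to no list above. *Npy*, neuropeptide Y, had 992, 952, 934, 1017 and 1036 in the 1000 uM cultures, against 5163, 5905, 5886, 4683 and 4509 in the DMSO cultures (−2.40 ± 0.08, adjusted p = 1.41e-21). *B3galnt1*, a glycosyltransferase of globoside synthesis, had 1793, 1525, 1623, 1462 and 1211 in the 1000 uM cultures, against 9867, 10237, 9087, 8066 and 9622 in the DMSO cultures (−2.63 ± 0.08, adjusted p = 5.69e-23). *B4galt5*, a lactosylceramide synthase, fell by 2.40 on the log2 scale by its brightest probe set and differed by −0.21 (limma adjusted p = 0.544) by a second. *Lurap1l* fell by 2.24 on the log2 scale. Yet of 41 Golgi glycosyltransferases 11 were lower and 2 higher, near the 26.8% of genes that were lower over the whole array.

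Energy metabolism showed small and even rises. Of 75 oxidative phosphorylation genes, 57 were higher and 2 lower, with a median difference of 0.26. Leaving out any 1 culture gave 53 to 56 higher genes. *Sdha*, the flavoprotein of complex II, had 18065, 18171, 17948, 18493 and 17980 in the 1000 uM cultures, against 12323, 11987, 12797, 11599 and 12461 in the DMSO cultures (0.57 ± 0.04, adjusted p = 1.77e-14). *Ndufs7*, a complex I subunit, had 28655, 27304, 27160, 27525 and 27225 in the 1000 uM cultures, against 17693, 18542, 17674, 17497 and 18925 in the DMSO cultures (0.61 ± 0.04, adjusted p = 2.47e-13). Although below 2-fold, both differences were much larger than the spread between cultures. Of 17 citrate cycle genes 13 were higher and 1 lower (median 0.38), the fall being *Idh2* (−0.61). Mitochondrial ribosomal proteins had 28 of 72 higher and 6 lower. Cytosolic ribosomal proteins had 12 of 45 lower and 0 higher (median −0.06), a share of lower genes near the 26.8% over all genes. With spike-in scaling 1 cytosolic ribosomal gene was lower and the median was 0.09.

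The response at 48 h was set against that at 24 h, measured in other cultures, so the comparisons share no array. Of the 1820 genes higher at 48 h, 1086 (59.7%) were also higher at 24 h, which is 76.5% of the 1420 genes higher at 24 h (13.4% of genes tested). Of the 2847 genes lower at 48 h, 1650 (58%) were lower at 24 h, or 75.6% of the 2182 lower at that time (20.5%). The direction was opposite, with both passing, for 47 genes higher at 48 h and 26 lower at 48 h. The log2 differences at the 2 times correlated at r = 0.78 (Spearman 0.67) across 10627 genes, which are not independent replicates. The difference between the times was itself tested as an interaction in the same fit. It passed as positive for 560 genes (5.27%) and as negative for 589 (5.54%), with 33 (0.311%) and 20 (0.188%) of at least 2-fold. These counts depended on the scaling: 274 were positive and 640 negative when arrays were centred on their median, and 91 and 276 with spike-in scaling.

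**Figure D3:**
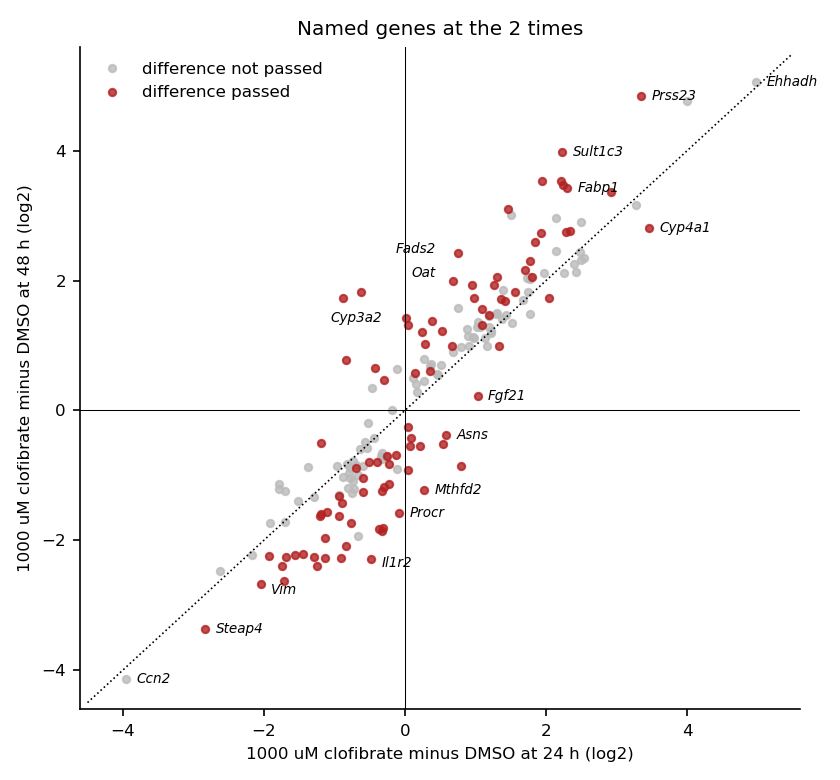
Log2 difference between 1000 uM clofibrate and DMSO at 48 h (vertical axis) against that at 24 h (horizontal axis) for the named genes, with genes whose difference between the times passed in red and the others in grey; the dotted line marks equal effects, and *Acot1* is left out because its 24 h DMSO signal lay under the background floor. *Prss23*, *Sult1c3* and *Fads2* lie above the line, and *Mthfd2*, *Procr*, *Asns* and *Fgf21* below it.

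Among the PPAR-alpha genes, 16 of 16 were higher at 24 h (median 2.01) and 15 at 48 h (median 2.21), and the difference between the times passed for 3 in each direction. *Fabp1* had a mean of 79531 ± 1460 in 1000 uM cultures and 7405 ± 777 in DMSO cultures at 48 h (SD, n = 5 each). At 24 h it had 38375 ± 2880 in 1000 uM cultures and 7753 ± 130 in DMSO cultures, so its effect was larger at 48 h (1.13 ± 0.08, adjusted p = 2.22e-11). *Cyp4a1*, whose signals with clofibrate lay near the top of the array's range, had the smaller effect at 48 h (−0.66 ± 0.13, adjusted p = 0.00108). *Fgf21* averaged 5123 ± 459 in 1000 uM cultures and 2517 ± 357 in DMSO cultures at 24 h, and its effect was smaller at 48 h (−0.80 ± 0.22, adjusted p = 0.0159). *Ehhadh* had an effect of 5.06 at 48 h and 4.98 at 24 h, and *Ccn2* −4.14 and −3.96. Neither difference between the times passed. The 48 h signals of *Ehhadh* and *Fabp1* with clofibrate also lay near the top of the array's range.

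Positive differences between the times were found for *Sult1c3* (1.75 ± 0.19, adjusted p = 1.35e-07), *Fads2* (1.66 ± 0.20, adjusted p = 5.28e-07), *Cyp17a1* (1.59 ± 0.16, adjusted p = 2.7e-08) and *Prss23* (1.50 ± 0.27, adjusted p = 0.000238). *Prss23* averaged 6833 ± 204 in 1000 uM cultures and 241 ± 47.4 in DMSO cultures at 48 h, against 1617 ± 211 in 1000 uM cultures and 164 ± 46.7 in DMSO cultures at 24 h. The largest of all were in dim genes, *Slc7a3* (2.62 ± 0.64, adjusted p = 0.00699), an amino acid transporter, and *Cd6* (2.45 ± 0.70, adjusted p = 0.0223), known from lymphocytes. With a constant of 100 added they were 1.70 for *Slc7a3* and 1.71 for *Cd6*. *Cd6* no longer passed without 1000 uM 24 h replicate 3 (2.09, limma adjusted p = 0.0546).

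*Cyp3a2*, a steroid and drug hydroxylase of male rat liver, reached its difference through the DMSO cultures. At 48 h it averaged 5946 ± 397 in 1000 uM cultures and 2276 ± 549 in DMSO cultures. At 24 h it averaged 6593 ± 679 in 1000 uM cultures and 6565 ± 1060 in DMSO cultures (1.40 ± 0.17, adjusted p = 1e-06). The signal with clofibrate was thus nearly equal at the 2 times, while that of DMSO cultures was lower at 48 h. *Oat*, ornithine aminotransferase, was the reverse. It averaged 25311 ± 2760 in 1000 uM cultures and 6313 ± 445 in DMSO cultures at 48 h, against 10863 ± 1400 in 1000 uM cultures and 6742 ± 656 in DMSO cultures at 24 h (1.32 ± 0.12, adjusted p = 8.64e-09). Its DMSO signal stayed at one level and its clofibrate signal was higher at 48 h. *Lpl*, lipoprotein lipase, had an effect of 1.31 at 48 h and 0.04 at 24 h (1.27 ± 0.22, adjusted p = 0.000204).

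Negative differences between the times included *Il1r2* (−1.82 ± 0.23, adjusted p = 1.91e-06), *A2m* (−1.45 ± 0.09, adjusted p = 2.51e-12), *S100a6* (−1.38 ± 0.11, adjusted p = 4.62e-10) and *Procr* (−1.50 ± 0.16, adjusted p = 9.18e-08). *A2m* averaged 16529 ± 1880 in 1000 uM cultures and 58014 ± 3020 in DMSO cultures at 48 h, against 63367 ± 3580 in 1000 uM cultures and 81706 ± 6740 in DMSO cultures at 24 h. The 24 h signals of *A2m* in DMSO cultures lay near the top of the array's range, where a step can be compressed, and this was not tested. *Procr*, the endothelial protein C receptor, had 1045, 1255, 1328, 892 and 861 in the 1000 uM cultures at 48 h, against 2738, 2704, 3571, 3418 and 3509 in the DMSO cultures, with no overlap. Its effect at 24 h was −0.08 and did not pass. Of the 39 cytoskeleton genes, 15 had a negative difference between the times and none a positive one, with 31 lower at 24 h and 33 lower at 48 h.

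Genes of the integrated stress response were next compared between the times. ATF4 is a transcription factor whose mRNA is translated when amino acids run short or the endoplasmic reticulum is stressed, and it raises genes of amino acid synthesis, transport and tRNA charging. Of 31 genes of this response, 15 were lower and 3 higher at 48 h (median −0.26), whereas 13 were higher and 7 lower at 24 h (median 0.18). The difference between the times was negative for 15 and positive for 1, with a median of −0.42 against −0.01 over all genes, and it was negative for 11 with spike-in scaling. It did not pass for 15 of the 31. The effect passed in opposite directions at the 2 times for *Asns*, *Trib3*, *Atf5* (−0.45 at 48 h) and *Slc3a2* (−0.26 at 48 h). With spike-in scaling the 48 h effects of *Asns*, *Slc3a2* and *Trib3* (−0.36, limma adjusted p = 0.103) did not pass, so these reversals rest on the scaling. *Asns*, asparagine synthetase, had 6851, 6627, 6456, 6454 and 5493 in the 1000 uM cultures at 48 h, against 7247, 7515, 7898, 9094 and 9590 in the DMSO cultures (−0.37 ± 0.06, adjusted p = 7.68e-06). At 24 h it averaged 12228 ± 373 in 1000 uM cultures and 8119 ± 445 in DMSO cultures. The difference between the times was −0.96 ± 0.09, adjusted p = 2.82e-09, although its 48 h value with spike-in scaling was −0.22 (limma adjusted p = 0.0951). *Trib3*, a pseudokinase induced by ATF4, had effects of −0.51 at 48 h and 0.54 at 24 h (−1.05 ± 0.20, adjusted p = 0.000659). Other probe sets of *Trib3* differed at 48 h by −0.75 (limma adjusted p = 0.000101) and by −0.13 (limma adjusted p = 0.507).

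*Atf4* itself had 21234, 20972, 20377, 20109 and 18644 in the 1000 uM cultures at 48 h, against 28193, 27701, 27166, 30639 and 33733 in the DMSO cultures (−0.54 ± 0.05, adjusted p = 2.63e-10), while its effect at 24 h was 0.07. *Chac1*, which degrades glutathione, had 2637, 2123, 2744, 1978 and 1466 in the 1000 uM cultures at 48 h, against 4357, 3730, 4583, 5521 and 5596 in the DMSO cultures (−1.14 ± 0.13, adjusted p = 4.64e-09). *Slc7a11*, the cystine transporter, had 1203, 1149, 1087, 1044 and 858 in the 1000 uM cultures at 48 h, against 2045, 2141, 2675, 2666 and 2537 in the DMSO cultures (−1.18 ± 0.10, adjusted p = 8.59e-12). All 3 were lower in every clofibrate culture than in any DMSO culture. *Ddit3*, which encodes CHOP, differed by 0.10 and did not pass.

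Cytosolic aminoacyl-tRNA synthetases, which charge tRNAs with amino acids, were likewise lower at 48 h. Of 19 tested, 16 were lower and none was higher (median −0.33). At 24 h 4 were higher and 3 lower (median 0.05), and the difference between the times was negative for 10 and positive for none. With spike-in scaling 7 of the 19 were lower at 48 h and 8 had a negative difference. *Iars1*, for isoleucine, had 4540, 3996, 4302, 4062 and 3466 in the 1000 uM cultures at 48 h, against 6608, 6424, 6548, 6626 and 6536 in the DMSO cultures (−0.69 ± 0.06, adjusted p = 9.7e-12). Its second probe set differed by −0.23 (limma adjusted p = 0.253). *Sars1*, for serine, averaged 4003 ± 147 in 1000 uM cultures and 5847 ± 728 in DMSO cultures at 48 h, against 6996 ± 581 in 1000 uM cultures and 6043 ± 791 in DMSO cultures at 24 h. Its effect passed in opposite directions at the 2 times (−0.76 ± 0.11, adjusted p = 1.94e-05).

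ATF4 is known to bind composite sites that hold the letters TGATGNAA. These were found in 899 of 27457 promoters (3.27%) and in 8 named genes. The 3 windows below, from RefSeq's GRCr8 assembly, come from named genes that differed in their change at 48 h, and the capitals mark the match, which lies on the opposite strand.
Fgf21: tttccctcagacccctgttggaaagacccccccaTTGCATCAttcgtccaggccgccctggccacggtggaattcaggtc
Iars1: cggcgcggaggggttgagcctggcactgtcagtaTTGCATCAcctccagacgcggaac
Chac1: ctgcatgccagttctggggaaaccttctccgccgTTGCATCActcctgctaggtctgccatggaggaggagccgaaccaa
The windows lie at chr1:105221474-105221553 (reverse strand), chr17:15193653-15193710 (reverse strand) and chr3:126795930-126796009 (forward strand), and the matches start at −143, −24 and −167 from the gene starts. *Fgf21* did not pass at 48 h (0.23), while *Iars1* fell by 0.69 and *Chac1* by 1.14 on the log2 scale.

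Amino acid synthesis was divided. Of 24 serine synthesis and folate one-carbon genes 8 were higher and 4 lower at 48 h (median −0.01), and the largest change among them was a fall. *Mthfd2*, a mitochondrial enzyme of folate metabolism, had 1507, 1143, 1096, 980 and 745 in the 1000 uM cultures at 48 h, against 1908, 2226, 2691, 2731 and 3000 in the DMSO cultures (−1.22 ± 0.14, adjusted p = 8.27e-09), and its effect at 24 h was 0.27 without passing. *Phgdh*, the first enzyme of serine synthesis, had 3728, 4118, 3513, 3327 and 3238 in the 1000 uM cultures at 48 h, against 6208, 5466, 6354, 7597 and 8697 in the DMSO cultures (−0.92 ± 0.09, adjusted p = 3.67e-10). Neither gene overlapped between the groups. Of 25 amino acid transporters 11 were lower and 3 higher at 48 h. *Slc43a2*, a transporter of large neutral amino acids, had 181, 784, 513, 432 and 141 in the 1000 uM cultures, against 1353, 1372, 1078, 1072 and 1112 in the DMSO cultures (−1.81 ± 0.27, adjusted p = 1.48e-06). By a second probe set *Slc43a2* fell less (−0.43 ± 0.13, limma adjusted p = 0.00907). *Slc6a13*, a GABA and taurine transporter, was higher, with 9123, 9045, 10892, 11312 and 10833 in the 1000 uM cultures, against 1705, 1750, 1465, 1682 and 1860 in the DMSO cultures (2.60 ± 0.12, adjusted p = 2.09e-18).

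Amino acid breakdown moved the other way. Of 50 urea cycle and amino acid catabolism genes, 30 were higher and 11 lower at 48 h (median 0.22), whereas 14 were higher and 19 lower at 24 h (median −0.06). The difference between the times was positive for 26 and negative for 4. *Uroc1*, urocanase of histidine breakdown, had 12647, 12510, 12303, 11771 and 12977 in the 1000 uM cultures, against 3045, 2966, 3132, 3189 and 2734 in the DMSO cultures (2.05 ± 0.08, adjusted p = 7.54e-20). *Oat*, which links ornithine with proline, rose by 2.00, *Kynu* by 1.03 and *Prodh2* by 1.00. The urea cycle enzymes themselves did not share this, since *Ass1* fell by 0.89, *Asl* by 0.50 and *Cps1* by 0.19 on the log2 scale, and *Otc* (0.20) and *Arg1* (0.08) did not pass. *Tat*, tyrosine aminotransferase, fell by 1.31 on the log2 scale. Other breakdown genes also fell, namely *Acmsd* (−1.33) and *Tdo2* (−0.85) of tryptophan, *Prodh* (−1.20) of proline and *Hal* (−0.86) of histidine. Breakdown of these amino acids was thus not raised throughout. *Kmo*, kynurenine 3-monooxygenase, was lower at both times, with an effect of −0.50 at 48 h and −1.19 at 24 h (0.69 ± 0.17, adjusted p = 0.00731). With spike-in scaling this difference was 0.61 (limma adjusted p = 0.13).

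The rises of oxidative phosphorylation genes were also larger at 48 h. At 24 h 19 of 75 were higher and 1 lower (median 0.07), and the difference between the times was positive for 38 and negative for 1 (median 0.19). These small differences depended on the scaling: 7 were positive when arrays were centred on their median, and 0 with spike-in scaling, where the median was 0.11. The same holds in part for amino acid catabolism, where 20 and 8 of the 50 differences were positive under these scalings. Mitochondrial beta-oxidation genes had 13 of 21 positive differences, with 9 and 2 under these scalings.

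**Figure D4:**
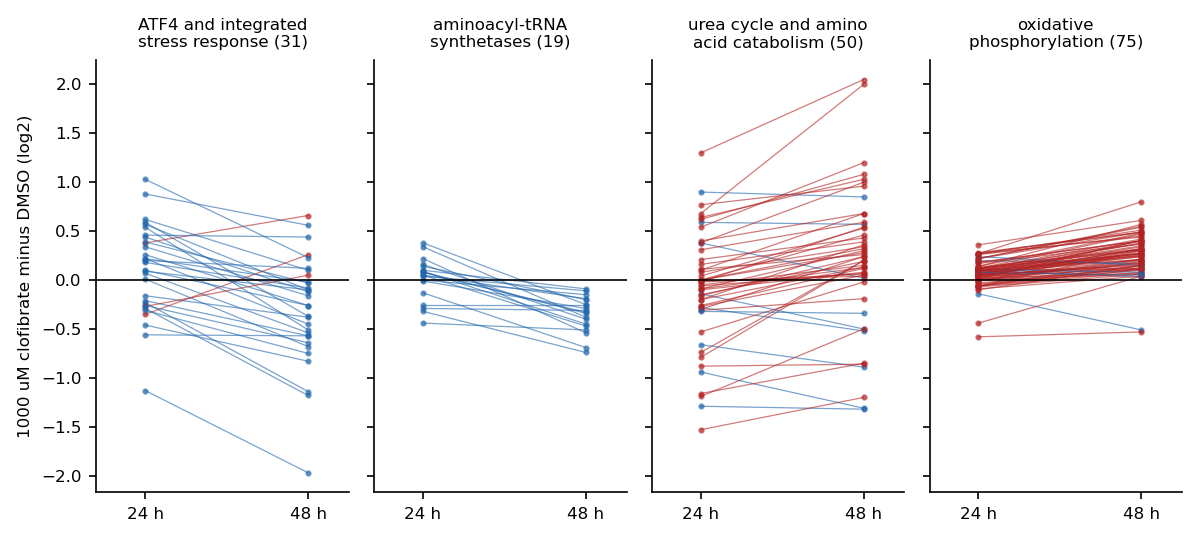
Log2 difference between 1000 uM clofibrate and DMSO at 24 h and 48 h for the members of 4 gene lists; each line is a gene, blue where the 48 h value is the lower and red where it is the higher. Members of the ATF4 list (median 0.18 at 24 h, −0.26 at 48 h) and the tRNA synthetases (0.05, −0.33) mostly run down, and those of amino acid catabolism (−0.06, 0.22) and oxidative phosphorylation (0.07, 0.26) mostly run up.

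Other stress lists were lower or mixed at 48 h. Of 31 endoplasmic reticulum chaperone genes 17 were lower and 3 higher (median −0.21), with *Hsp90b1* down by 0.89 on the log2 scale and *Hspa5*, the main chaperone of that compartment, at −0.10 without passing. Heat shock proteins had 9 of 25 lower and 7 higher. *Cryab*, alpha-B crystallin, had 1536, 1622, 1795, 1951 and 1379 in the 1000 uM cultures, against 7669, 7541, 7102, 6404 and 6078 in the DMSO cultures (−2.08 ± 0.09, adjusted p = 7.47e-19). Of 19 p53 targets 10 were lower and 3 higher (median −0.29), led by *Sesn1*, which fell by 1.24 on the log2 scale. *Cdkn1a*, the p21 inhibitor of the cell cycle, fell by 0.51, and *Mdm2* differed by −0.07 without passing. Proteasome genes had 15 of 40 higher and 4 lower, with *Psmb5* up by 0.46 (0.70 without passing in a second probe set). Interferon-stimulated genes had 9 of 27 lower and 3 higher. Without DMSO replicate 1 the counts were 10 lower and 1 higher. The lysosome and autophagy list had 12 of 37 lower and 10 higher, with a median of 0.00.

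Liver transcription factors and nuclear receptors were divided. Of 25 hepatocyte transcription factors 10 were higher and 6 lower, led by *Hlf* (1.56) and *Creb3l3* (1.41), a membrane-bound activator of lipid genes. *Onecut1* fell by 0.83 on the log2 scale. Of 31 nuclear receptors and cofactors 13 were higher and 7 lower. *Rxrg*, a partner of PPAR-alpha, rose by 1.47 by its brightest probe set and differed by −0.04 (limma adjusted p = 0.939) by a second, dimmer one. *Nr1d1*, REV-ERB-alpha, rose by 0.99, and *Ppargc1a*, a coactivator of mitochondrial genes, fell by 0.77 on the log2 scale. *Pck1*, the rate-limiting enzyme of gluconeogenesis, had 6321, 6499, 6062, 6353 and 7534 in the 1000 uM cultures, against 1238, 1319, 1436, 1928 and 1575 in the DMSO cultures (2.14 ± 0.11, adjusted p = 7.42e-17). Of 17 genes of gluconeogenesis and glycogen 7 were lower and 4 higher, and of 17 genes of glycolysis 4 were lower and 4 higher.

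The high dose was also set against 60 uM clofibrate at 48 h. With 60 uM, 606 genes were higher than in DMSO cultures (5.7%) and 615 lower (5.79%). Directly between the doses, 1265 genes were higher with 1000 uM than with 60 uM (11.9%) and 1971 lower (18.5%), with 105 rises (0.988%) and 91 falls (0.856%) of at least 2-fold. With spike-in scaling the balance was reversed, with 1371 higher and 630 lower. These comparisons share cultures with each other and with the main one. Their values are therefore given side by side, in the order of dose.

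For *Ehhadh* the mean signal was 2344 ± 278 in DMSO cultures, 15260 ± 1630 at 60 uM and 77550 ± 3180 at 1000 uM (SD, n = 5 each). *Fabp1* had 7405 ± 777 in DMSO cultures, 23969 ± 1030 at 60 uM and 79531 ± 1460 at 1000 uM. *Cyp4a1* had 11953 ± 2470 in DMSO cultures, 55802 ± 2640 at 60 uM and 82169 ± 2020 at 1000 uM. The log2 difference between the doses was 2.35 ± 0.08, adjusted p = 1.26e-21 for *Ehhadh* and 1.73 ± 0.06, adjusted p = 1.3e-21 for *Fabp1*. For *Cyp4a1* it was 0.56 ± 0.09, adjusted p = 2.13e-05. The signals of *Ehhadh*, *Fabp1* and *Cyp4a1* at 1000 uM all lay near the top of the array's range, where a step can be compressed, so the genes are not ranked. Saturation was not tested. Of the 16 PPAR-alpha genes 15 were higher at 60 uM than in DMSO cultures, with a median of 0.99, and 15 were higher at 1000 uM than at 60 uM, with a median of 1.10.

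*Prss23* had 241 ± 47.4 in DMSO cultures, 331 ± 32.8 at 60 uM and 6833 ± 204 at 1000 uM. It did not pass at 60 uM against DMSO (0.48, limma adjusted p = 0.13) and differed strongly between the doses (4.37 ± 0.19, adjusted p = 2.33e-18). *Oat* had 6313 ± 445 in DMSO cultures, 7509 ± 933 at 60 uM and 25311 ± 2760 at 1000 uM, with a difference between the doses of 1.75 ± 0.09, adjusted p = 1.03e-16. Both were therefore raised chiefly at the high dose. Others that did not pass at 60 uM were *Cyp2e1* (−0.02), *Lpl* (0.24) and *Me3* (−0.07), with differences between the doses of 1.23, 1.07 and 1.21.

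Falls also differed in their dose pattern. *Ccn2* had 11054 ± 879 in DMSO cultures, 3647 ± 152 at 60 uM and 632 ± 85.2 at 1000 uM (−2.54 ± 0.10, adjusted p = 8.94e-20). *Kng2l1* had 21598 ± 776 in DMSO cultures, 18186 ± 924 at 60 uM and 4559 ± 649 at 1000 uM (−2.01 ± 0.07, adjusted p = 4.19e-20). *Npy* had 5229 ± 654 in DMSO cultures, 1772 ± 182 at 60 uM and 986 ± 42.7 at 1000 uM (−0.84 ± 0.08, adjusted p = 1.12e-09). *Kng2l1* was thus lowered almost entirely at the high dose, and *Npy* mostly by the low one. *Cyp7a1* differed by 0.19 at 60 uM without passing and by −1.41 between the doses. *Il1r2* fell by 1.80 on the log2 scale at 60 uM and by a further 0.50 between the doses (−0.50 ± 0.17, adjusted p = 0.0242).

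**Figure D5:**
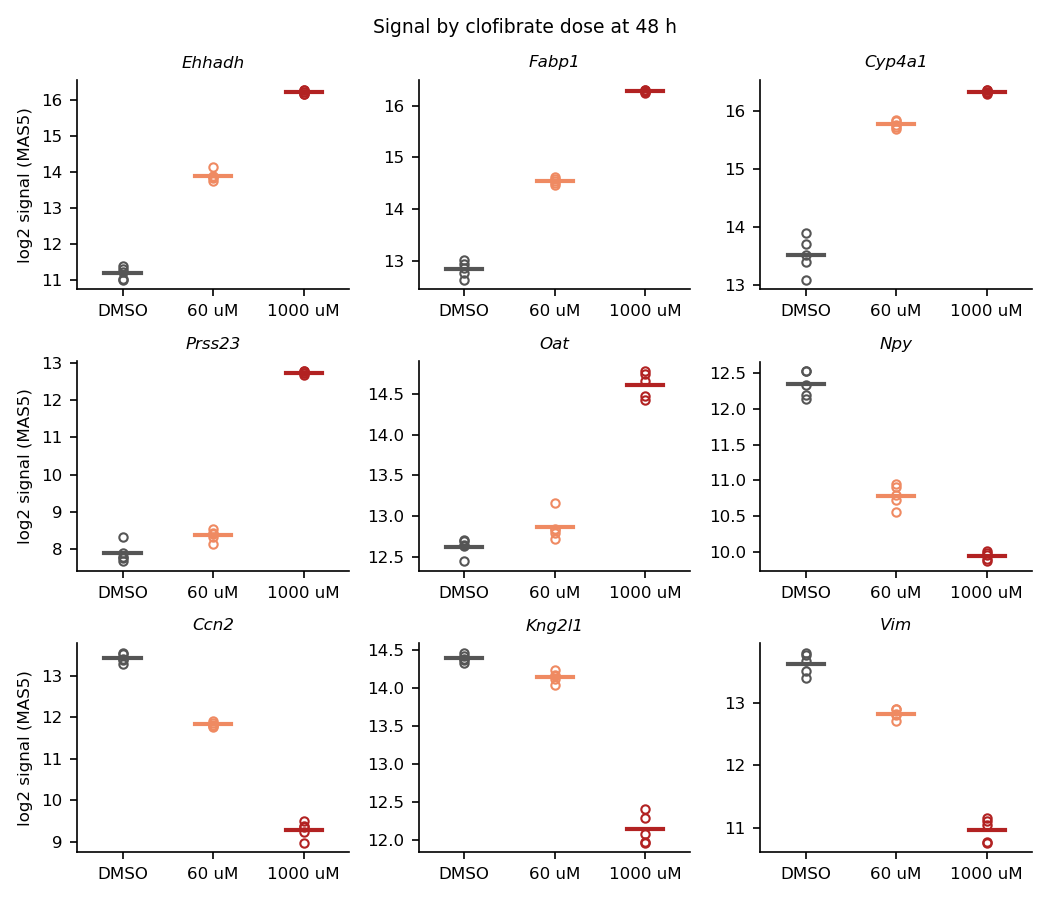
Log2 signal (vertical axes, each with its own range) of 9 genes at 48 h in DMSO, 60 uM and 1000 uM clofibrate cultures; circles are the 5 cultures of each group and lines are group means. *Npy* moved most between DMSO and 60 uM, and *Prss23*, *Oat* and *Kng2l1* between 60 uM and 1000 uM.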

How the data were processed

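Gene expression was measured with 1 rat microarray per culture on 30 arrays in 6 groups of 5, and replicates were numbered in accession order. The intensity values were deposited by the authors as linear signals made with MAS5, per the submitters' processing notes. In the deposited values each array has the same mean without its top and bottom 2%. The MAS5 version was not stated, scanner files were not used here, and the precision is limited by the number of arrays.

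Log2 signals of all 30 arrays were fitted in limma 3.58.1 (R 4.3.3) with a mean per group, an intensity trend and Benjamini-Hochberg adjustment. All adjusted p-values are limma's, two-sided. Of 31042 probe sets, the 18625 with a mean log2 signal above the 40th percentile (8.00, a signal of 255) were tested, and each gene was represented by its brightest probe set. Of all probe sets, 20826 had 1 gene symbol, 436 several and 9780 none. The background floor of an array was the highest of its 3 TrpnX control sets. On simulated data the main comparison recovered 90% of changes of 1 and 98% of changes of 2 on the log2 scale. The difference between the times recovered 80% and 96%. The simulation had independent noise, no shift between arrays and 100 changes of each size, far fewer than passed in the data.

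The comparison, its gene lists and their members were chosen with earlier results of these data known. Named genes were the 15 largest rises and falls that passed without overlap, the 6 largest in each direction for the differences between times and between doses, up to 3 genes with the largest change in each list, and the PPAR-alpha list. *Alb*, *Atf4*, *Asns*, *Lpl*, *Kmo*, *Trib3* and other list members given with a value were chosen after their values were seen. Other scalings, filters, a constant of 100 before logs, array weights, other variance settings leaving out single arrays and, after the data were seen, a block by title number were tried as alternatives.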

Additional observations from a re-analysis of the deposited data

Results flagged for a closer look

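In groups of 5 arrays, an array was singled out when its gap to the nearest of the others was over 0.71 of the group's range. Of 372 gene and group combinations 26 met this, and chance gives about 1 in 20. In the 1000 uM cultures at 48 h the signals that stood apart included *Aldh1a1* with 47531 in replicate 5, *Asns* with 5493 in replicate 5, *Cpt1b* with 12682 in replicate 5, *Cyp17a1* with 5645 in replicate 3, *Ect2* with 608 in replicate 4 and *Ifit2* with 1489 in replicate 5. Also in the 1000 uM cultures they included *Kdr* with 766 in replicate 5, *Lyz2* with 4439 in replicate 2, *Mrpl2* with 3763 in replicate 3, *Ndufs7* with 28655 in replicate 1, *Nr1d1* with 573 in replicate 4 and *Osbpl5* with 133 in replicate 3. Also in the 1000 uM cultures they included *Pex16* with 8419 in replicate 4, *Scarb1* with 2935 in replicate 5, *Sult6b2* with 727 in replicate 5 and *Vars1* with 469 in replicate 4. In the DMSO cultures at 48 h the signals that stood apart included *Acot1* with 739 in replicate 1, *Ccng1* with 11624 in replicate 5, *Cd6* with 344 in replicate 2, *Crat* with 2184 in replicate 2, *Klkb1* with 4758 in replicate 5 and *Maff* with 3874 in replicate 2. Also in the DMSO cultures they included *Ndufa5* with 3663 in replicate 3, *Plin2* with 56078 in replicate 5, *Rps27l* with 15663 in replicate 1 and *Tmem14a* with 104 in replicate 3. Replicate 5 of the 1000 uM cultures accounts for 7 of the 26, the most of any array, and replicate 4 for 4. DMSO replicate 1, which stood apart with a residual SD of 0.336, accounts for 2.

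The 1000 uM effect at 48 h minus that at 24 h was tested as an interaction in limma, and 92 named genes passed, 42 with a positive and 50 with a negative difference on the log2 scale. Of these, 55 kept their call in all alternatives tried. With spike-in scaling *Acadm*, *Acat1*, *Acsm3*, *Agpat2*, *Aldh5a1*, *Cpt1b*, *Crat*, *Dgat1*, *Ephx2*, *Fads1*, *H19*, *Hacl1*, *Hadha*, *Hlf*, *Kmo*, *Mgll*, *Mlycd*, *Mttp*, *Ndufs7*, *Sdha*, *Sectm1b* and *Slc6a13* no longer passed, which left 20 of the 42 positive ones. Of the negative ones *Abcb4*, *Abcc3*, *Angptl4*, *C1s*, *Ccng1*, *Gys2*, *Hsp90b1*, *Lurap1l*, *Mat2a*, *Rpl7l1* and *Tat* no longer passed there, which left 39 of the 50. The negative differences lost there were each larger in size than in the main scaling (−0.50 for *Abcb4* and −0.28 for *Hsp90b1*), yet their adjusted p was higher. The positive ones lost were each smaller than in the main scaling (0.44 for *Acadm*). The effect was more positive at 48 h for *Slc7a3* (2.62), *Cd6* (2.45), *Sult1c3* (1.75), *Fads2* (1.66), *Sectm1b* (1.64), *H19* (1.61), *Cyp17a1* (1.59), *Prss23* (1.50) and *Cyp3a2* (1.40). A further group was *Oat* (1.32), *Spc24* (1.32), *Lpl* (1.27), *Cacna2d3* (1.24), *Fabp1* (1.13), *Fabp2* (1.08), *Bdh1* (0.99), *Gstt3* (0.99) and *Cyp2e1* (0.96). Next came *Aqp7* (0.80), *Acsm3* (0.77), *Cyp4f4* (0.76), *Slc6a13* (0.75), *Uroc1* (0.74), *Aldh5a1* (0.73), *Cyp8b1* (0.70), *Kmo* (0.69) and *Fads1* (0.67). Then followed *Acadm* (0.52), *Hlf* (0.46), *Hacl1* (0.45), *Cpt1b* (0.44), *Mgll* (0.44), *Crat* (0.43), *Sdha* (0.43), *Ephx2* (0.35) and *Agpat2* (0.32). To these were added *Mlycd* (0.29), *Dgat1* (0.28), *Acat1* (0.26), *Hadha* (0.26), *Ndufs7* (0.25) and *Mttp* (0.22). The effect was less positive or more negative at 48 h for *Hsp90b1* (−0.19), *Ccng1* (−0.29), *Angptl4* (−0.31), *Rpl7l1* (−0.31), *Lurap1l* (−0.32), *Gys2* (−0.35), *Tat* (−0.37), *Abcc3* (−0.40) and *Abcb4* (−0.41). A further group was *C1s* (−0.41), *Edem2* (−0.45), *Mat2a* (−0.45), *S100a13* (−0.47), *Pfkp* (−0.51), *Lbp* (−0.53), *Steap4* (−0.53), *Iars1* (−0.56) and *Kng2l1* (−0.57). Next came *Atf4* (−0.61), *Neu1* (−0.61), *Vim* (−0.63), *Ifit2* (−0.65), *B4galt5* (−0.66), *Cyp4a1* (−0.66), *Sult6b2* (−0.67), *C1r* (−0.71) and *Sars1* (−0.76). Then followed *Fn1* (−0.77), *Fgf21* (−0.80), *Rcan1* (−0.85), *Slc7a11* (−0.88), *Ahsg* (−0.91), *B3galnt1* (−0.91), *Chac1* (−0.91), *Apoa5* (−0.95) and *Asns* (−0.96). To these were added *Phgdh* (−0.96), *Cyp2c11* (−0.97), *Trib3* (−1.05), *Abcc2* (−1.15), *Npy* (−1.15), *Cryab* (−1.24), *S100a6* (−1.38), *A2m* (−1.45) and *Mthfd2* (−1.49). The last were *Procr* (−1.50), *Slc43a2* (−1.51), *C1qb* (−1.54), *Osbpl5* (−1.64) and *Il1r2* (−1.82). Some of these large differences were fragile. *C1qb*, *Osbpl5*, *H19* and *Sectm1b* no longer passed without the filter on dim probe sets or when certain single arrays were left out. With a constant of 100 added, *C1qb* was −0.88 (limma adjusted p = 0.0711).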

How the results depend on the processing

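Of 3510 values for 186 named genes in the main comparison over 19 alternatives, 3457 kept their direction and side of the threshold, 38 no longer passed, 15 newly passed and 0 reversed. For 92 genes whose effect differed between the times, 2480 of 2660 values did so and 180 no longer passed. Scaling mattered most for the counts of probe sets. With spike-in scaling 1863 probe sets were lower at 48 h, against 4219 in the main fit, and 66.5% of the calls were higher, against 40.2%. For the difference between the times, spike-in scaling gave 117 positive and 363 negative (24.4% positive), and median centring 370 and 841 (30.6%), against 776 and 768 (50.3%). Between the doses spike-in scaling gave 2053 higher and 920 lower (69.1% higher), against 1869 and 2850 (39.6%). The cause was not tested. Leaving out 1 array at a time gave 2634 to 2761 higher and 3906 to 4102 lower at 48 h, 658 to 751 positive and 650 to 774 negative between the times, and 1712 to 1793 higher and 2552 to 2751 lower between the doses. A replicate block from the running number in the titles (each run of 6 numbers holds every group once) was added after seeing the data. It gave 2867 higher and 4267 lower at 48 h, 825 positive and 814 negative between the times, and 1911 higher and 2912 lower between the doses. *Tmem14a* at 48 h (limma adjusted p = 0.0525) and *Abcb4* between the times (0.059) no longer passed. The 1000 uM and DMSO cultures of 1 run at 48 h deviated from their group means with correlations of −0.01 to 0.05. The mean was 0.02 within runs and −0.01 between runs, and 2 of 5 correlated best within their run. Correlations this weak over 5 runs cannot decide whether the numbers pair the cultures. Signals near the floor limit the precision of dim genes.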
